A study of Rattus norvegicus with 6 samples.

Results

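Genes that carry newly made proteins into the endoplasmic reticulum (ER), fold them there and pass them on to the Golgi were compared between the embryonic and the adult rat choroid plexus. Membership was set by gene symbol, with a pattern of names for the translocation machinery, chaperones, disulfide isomerases, coat proteins and cargo receptors, and it gave 48 genes. These were 48 of the 10093 genes that carry a name, of the 10653 genes that the authors had called different between the ages, and of 29479 gene identifiers in all. Because names were given only to called genes, the members were in effect selected on their difference between E15 and adult, the same difference that is described here. Their fold changes are therefore given as a description with no p-value, and nothing is supported with them. RefSeq lists 119 protein-coding rat genes whose symbols match the pattern, of which 71 (among them *Xbp1*, *P4hb*, *Hyou1*, *Ern1* and *Atf6*) had no named row under that symbol and were not analysed here.

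RNA came from whole lateral ventricular choroid plexuses of Sprague-Dawley rats at embryonic day 15 (E15) and at 6 weeks of age (adult, non-pregnant), each age being represented by 3 pools of 10 animals, sequenced as 1 library apiece. Stroma, vessels and blood cells were included in each pool beside the epithelium. Total counts were 17875089, 18901272 and 18524987 for E15 replicates 1 to 3, against 18511712, 19204440 and 18421472 for the adult replicates. Every member had at least 18 counts in every library, so all 48 passed the filter on low counts.

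Secreted and membrane proteins enter the ER through the translocon, guided by the signal recognition particle, and lose their signal peptide there. Chaperones and disulfide isomerases fold them, misfolded chains are returned to the cytosol for degradation, and COPII vesicles carry the finished products out while COPI vesicles bring escaped residents back. The choroid plexus epithelium is a secretory tissue that releases transthyretin and other proteins into the cerebrospinal fluid, and cells of this kind are known for an extensive ER.

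Of the 48 members, 43 were enriched in the adult (20 with total counts, by which 9 of the 43 changed sign and 14 kept their sign but were not called) and 5 at E15 (*Pdia5*, *Sec16b*, *Sec61a2*, *Ssr2* and *Creb3l2*) by the quasi-likelihood test of edgeR with a threshold of 0.05 on the adjusted p. Over all 16643 genes tested, 29.3% were called higher in the adult and 34.7% higher at E15, and nothing is read from this contrast because the members were called in it already. Normalized counts of the 3 adult pools lay above those of the 3 E15 pools for the same 43 members and below them for the other 5, against 32.1% and 38.0% of all genes tested. The median log2 fold change (E15 over adult, so that negative values mean higher in the adult) of the members was −1.03, with a range from −3.98 to 1.88. For all genes tested the median was 0.14, and for all named genes 0.73. In 25 members the adult level was more than 2-fold the E15 level, and in 2 (*Pdia5* and *Sec16b*) the E15 level was more than 2-fold the adult level. In RNA from whole tissue, fewer cells of a type and less RNA per cell cannot be told apart.

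**Figure D1:**
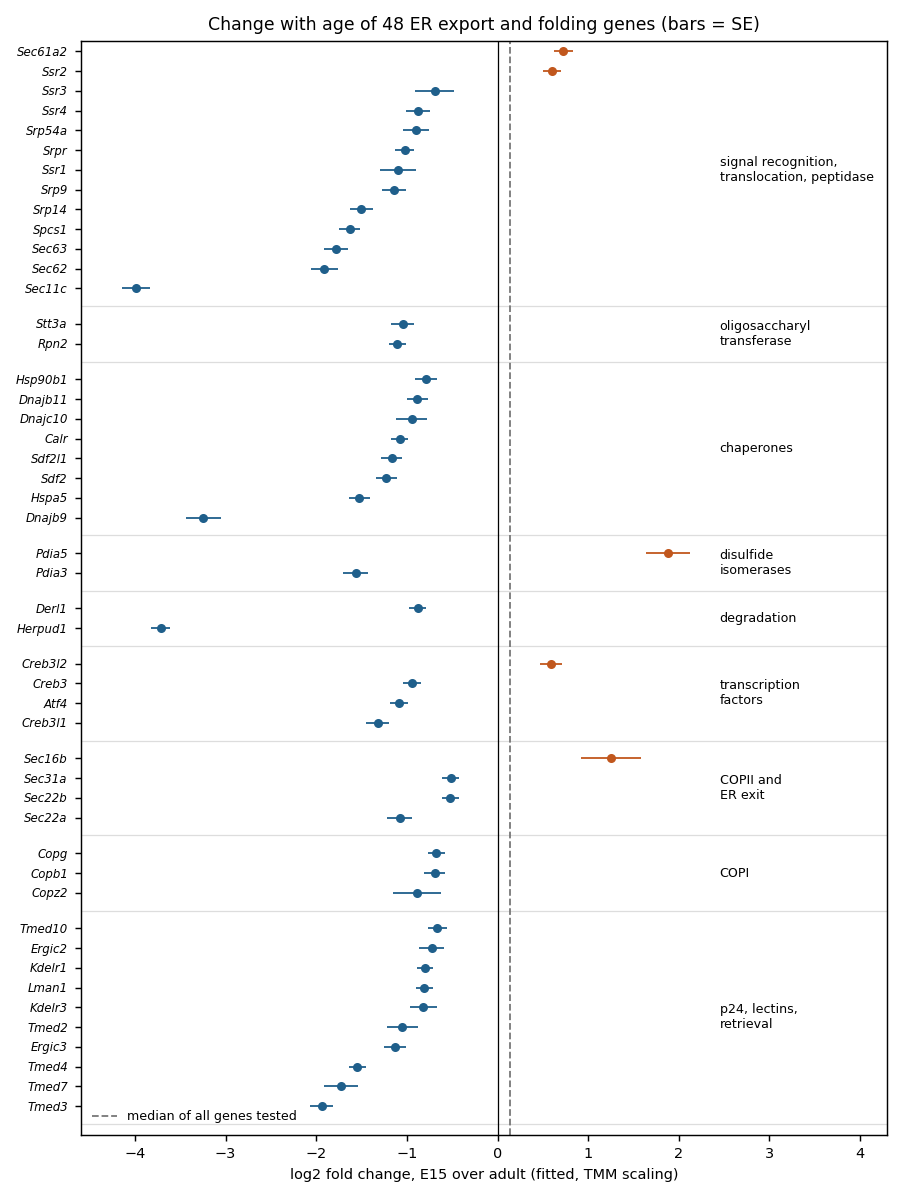
Fitted log2 fold change (x axis, E15 over adult, TMM scaling) of each of the 48 members (y axis), grouped by role. Bars are the standard error derived from the fit (3 pools per age), not the spread of the pools. Blue points lie on the adult side and orange points on the E15 side, the dashed line is the median of all genes tested (0.14), and *Sec11c*, *Herpud1* and *Dnajb9* stand farthest to the left; 9 of the blue points cross 0 when libraries are scaled by their totals.

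How the libraries were scaled bore on these directions. The 10 genes of highest mean count took 5.53% ± 0.577 (SD, n = 3) of the E15 counts, against 25.4% ± 1.65 (SD, n = 3) of the adult counts, and transthyretin (*Ttr*) alone 3.06% ± 0.347 (SD, n = 3) and 15.7% ± 1.63 (SD, n = 3). Normalized counts are scaled by the TMM method, which assumes that most genes do not differ between libraries. With it, 29.3% of the genes tested were called higher in the adult and 34.7% at E15, so by these calls most genes did differ. Which scaling is nearer to the true levels was not tested. With scaling by total counts the median over the 16643 genes moved from 0.14 to 0.94, a shift of 0.81 towards E15, and the median of the members moved from −1.03 to −0.23. Since total counts move all genes by about the same amount, the members' median relative to that of all genes (−1.18) and the count of 43 members below the median of all genes are the same with either scaling by construction, which is no sign of stability. With total counts, 20 members were called higher in the adult (13.8% of all genes tested), 7 higher at E15 (58.9%) and 21 were not called. The sign differed between these scalings for 9 members, *Copb1*, *Copg*, *Ergic2*, *Hsp90b1*, *Kdelr1*, *Sec22b*, *Sec31a*, *Ssr3* and *Tmed10*, which ran from −0.80 to −0.52 with TMM and from 0.00 to 0.29 with total counts. All values that follow use TMM scaling unless another is named.

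**Figure D2:**
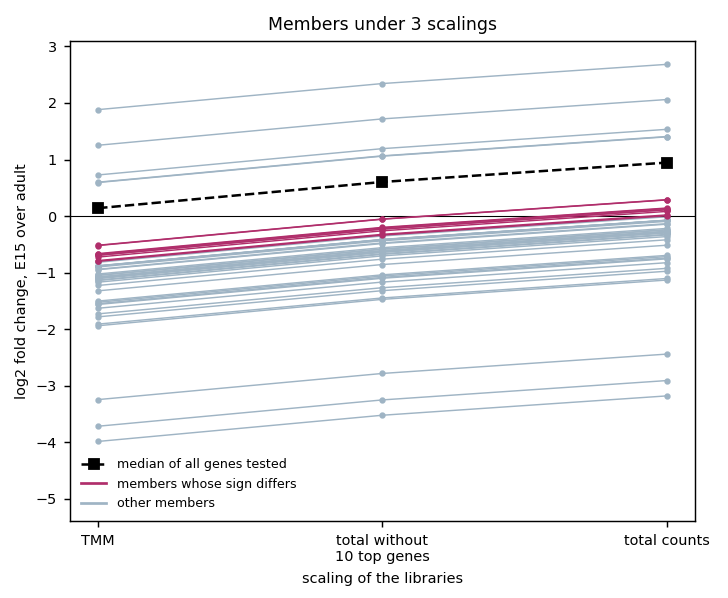
Log2 fold change (y axis, E15 over adult) of each member under 3 scalings of the libraries (x axis): TMM, totals that leave out the 10 genes highest in mean count, and plain totals. Grey-blue lines are members that keep their sign, magenta lines the 9 that do not, and black squares the median of all genes tested, which rises from 0.14 through 0.60 to 0.94 as the members rise with it.

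The pool labelled E15 replicate 1 stood apart from the other E15 pools. Among 11003 genes with a mean normalized count above 100, 12.6% were more than 0.5 (log2) above the mean of the other E15 pools in it and 15.0% were as far below, against 3.07% and 5.14% for replicate 2 and 1.67% and 2.61% for replicate 3. Of the 48 members, 6 (12.5%) were as far above and 1 was as far below. *Ssr3* was 1.82 times, *Ssr1* 1.74 times and *Tmed7* 1.63 times the mean of the other E15 pools there, whereas *Copz2* was 0.55 times it. Of the E15 pools, replicate 1 had the highest summed count of developing neuron markers (5196, 1655 and 3748 in replicates 1, 2 and 3) and the lowest sums of the markers of epithelium, mesenchyme, endothelium and erythroid cells that are given with those lists, and their part in the difference was not tested. Without this pool, 43 members were called higher in the adult and 5 higher at E15. These counts are no sign of stability, because the members have names only as genes already called between the ages.

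**Figure D3:**
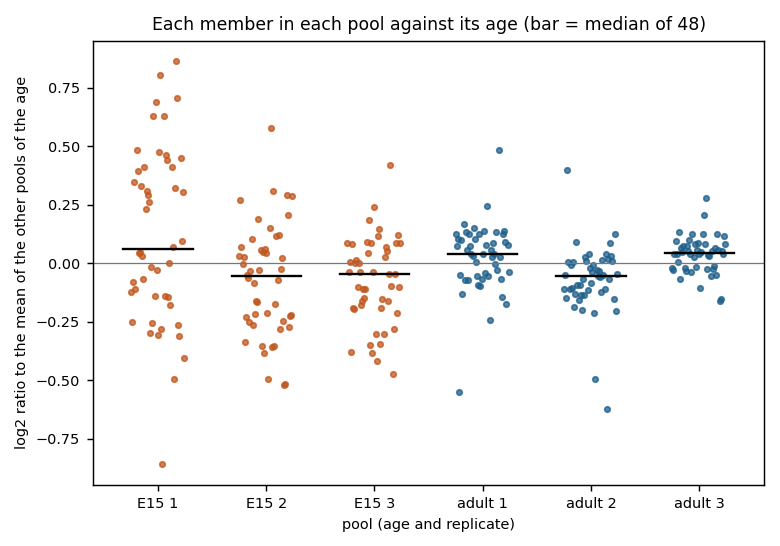
Each point is a member in a pool, as the log2 ratio of its normalized count to the mean of the other pools of the same age (y axis), for the 6 pools (x axis), with black bars at the median of the 48 members. The spread is widest in E15 replicate 1, from −0.86 (*Copz2*) to 0.86 (*Ssr3*), and narrowest in adult replicate 3.

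The members of signal recognition, translocation and signal peptide cleavage numbered 13, of which 11 were higher in the adult (*Ssr3* on the E15 side with total counts) and 2, *Sec61a2* and *Ssr2*, at E15. With total counts 6 were called higher in the adult, and *Ssr1*, *Ssr3*, *Ssr4*, *Srp54a* and *Srpr* were not called. *Sec11c* (ENSRNOG00000017036), a catalytic subunit of the signal peptidase, had 363, 250.3 and 276 normalized counts in the pools of E15, against 4818, 4624 and 4646 in those of the adult. Its means were 297 ± 59.3 and 4696 ± 106 (SD, n = 3 each), a log2 fold change of −3.98 (SE 0.15) or 15.8-fold enrichment in the adult. No member differed more between the ages, and the adult pools differed among themselves by far less than the ages did. *Spcs1*, an accessory subunit of the same enzyme, had 2072, 1599 and 1719 normalized counts at E15 against 5635, 5615 and 5440.3 in the adult, a log2 fold change of −1.63 (SE 0.12).

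*Sec62* and *Sec63* encode membrane partners of the translocon that serve import after translation and the opening of the channel. *Sec62* had 2784, 2046 and 1961 normalized counts at E15 against 9057, 8370.3 and 8105 in the adult, with a log2 fold change of −1.91 (SE 0.14). *Sec63* had 4378, 3321 and 3120.4 against 12550.3, 12058 and 12595, with a log2 fold change of −1.78 (SE 0.14). The changes were of similar size, with every adult pool well above every E15 pool and the E15 pool 1 the highest of its age. For *Sec61a2* (ENSRNOG00000023278), an isoform of the channel's pore subunit, the direction was the opposite, with 1268, 1261 and 1305 normalized counts at E15 against 774, 725 and 817 in the adult and a log2 fold change of 0.73 (SE 0.11), 1.66-fold higher at E15.

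The translocon-associated protein complex has 4 subunits, encoded by *Ssr1* to *Ssr4*, and all 4 were members. *Ssr1* had 4629, 2601 and 2705 normalized counts at E15 against 6948, 7057 and 7245 in the adult, a log2 fold change of −1.10 (SE 0.20) that was −1.42 without E15 replicate 1. *Ssr3* had 5075, 2753 and 2818 against 5562, 5563 and 6075, a log2 fold change of −0.69 (SE 0.22) that was −1.04 without that pool. It was −0.55 without E15 replicate 3 and −0.67 without adult replicate 3, and *Ssr3* was not called in either case. In both genes E15 replicate 1 lay between the other E15 pools and the adult pools, and in *Ssr3* it came close to the adult pools. *Ssr4* had 757, 1046 and 958 normalized counts at E15 against 1662, 1657 and 1759 in the adult, with a log2 fold change of −0.88 (SE 0.13), and here E15 replicate 1 was the lowest pool. *Ssr2* had 2581, 2913 and 2796 at E15 against 1899, 1723 and 1850 in the adult, a log2 fold change of 0.60 (SE 0.10) in the opposite direction to the other subunits with TMM scaling. With total counts *Ssr3* (0.11) also lay on the E15 side, next to *Ssr2* (1.41), while *Ssr1* (−0.29) and *Ssr4* (−0.07) stayed on the adult side.

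In the signal recognition particle, *Srp9* and *Srp14* encode the pair of small subunits that slows translation until the ribosome has docked. *Srp14* had 929.8, 732 and 776 normalized counts at E15 against 2386, 2092 and 2429.6 in the adult, a log2 fold change of −1.50 (SE 0.13). *Srp9* changed by −1.14 (SE 0.14), *Srp54a*, which encodes the subunit that binds signal peptides, by −0.90 (SE 0.14), and *Srpr*, the subunit of the receptor that receives it, by −1.02 (SE 0.11). Each of these 4 genes was higher in every adult pool than in any E15 pool.

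Oligosaccharyl transferase, which attaches glycans to asparagine residues as chains enter the ER, had 2 members. Its catalytic subunit *Stt3a* had 6763, 5094 and 5183 normalized counts at E15 against 11023, 11694 and 12449 in the adult, a log2 fold change of −1.04 (SE 0.13). *Rpn2*, a non-catalytic subunit, had 7352, 7137 and 7260.3 against 16028, 14660.3 and 16124, a log2 fold change of −1.11 (SE 0.09) or 2.15-fold. The 2 subunits thus changed by nearly the same factor.

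Chaperones and co-chaperones gave 8 members, all of them enriched in the adult with TMM scaling and all but *Hsp90b1* on the adult side with total counts. By total counts 5 of the 8 were called higher in the adult and 3 were not called. *Hspa5* (ENSRNOG00000018294), which encodes the chaperone BiP, had 32565, 26757 and 27464 normalized counts at E15 against 89106, 75720.5 and 84823 in the adult. Means were 28929 ± 3169 and 83217 ± 6836 (SD, n = 3 each), giving a log2 fold change of −1.52 (SE 0.11) and 2.88-fold enrichment in the adult. The spread within an age was small beside the distance between the ages, and no pool of either age reached the other.

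*Calr*, which encodes the lectin chaperone calreticulin, had 27814, 26642 and 27284 normalized counts at E15 against 62038, 54672 and 55705 in the adult, a log2 fold change of −1.08 (SE 0.09). *Hsp90b1*, the ER form of the heat shock protein 90 family, had 34902, 26735 and 28751 against 55226, 47617 and 53106, a log2 fold change of −0.79 (SE 0.12) that came to 0.02 with total-count scaling. These abundant chaperones did not change by the same factor, and *Hsp90b1* was the only member of this role whose sign differed with total counts.

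The J-domain proteins that deliver substrates to BiP differed widely from each other. *Dnajb9* (ENSRNOG00000004006) had 534, 331 and 331 normalized counts at E15 against 3609, 3844 and 3879 in the adult, a log2 fold change of −3.25 (SE 0.19) or 9.48-fold enrichment. *Dnajb11* had 2994, 2433 and 2452 against 4919, 4542 and 5071, a log2 fold change of −0.88 (SE 0.12). *Dnajc10*, whose product also reduces disulfide bonds, had 4980.4, 3207 and 3226 against 7156, 7248 and 7619, a log2 fold change of −0.95 (SE 0.17). *Dnajb9* and *Dnajc10* were highest at E15 in replicate 1, and without it their log2 fold changes were −3.52 and −1.19. *Sdf2* (−1.23, SE 0.11) and its relative *Sdf2l1* (−1.17, SE 0.12), whose products bind such co-chaperones, changed by similar amounts.

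Disulfide isomerases pair the cysteines of folding chains, and the 2 members of this role moved in opposite directions. *Pdia3* (ENSRNOG00000015018), the isomerase that works with calreticulin on glycoproteins, had 21451, 15488 and 15954 normalized counts at E15 against 54381, 48518 and 53427 in the adult, a log2 fold change of −1.56 (SE 0.14) or 2.96-fold enrichment in the adult. *Pdia5* (ENSRNOG00000032327) had 272, 233 and 194 at E15 against 48.1, 75.3 and 65.9 in the adult, a log2 fold change of 1.88 (SE 0.25) or 3.69-fold enrichment at E15. The opposite signs held with TMM, RLE and total-count scaling. Calnexin, the membrane-bound partner of calreticulin, lies outside the pattern because its row carries a protein entry name, and was named after its values had been seen. It had 27345, 16735 and 18292 normalized counts at E15 against 63696, 61043 and 63949.5 in the adult, a log2 fold change of −1.60 (SE 0.17). Other called genes of this machinery carry such entry names too, *TMED5_RAT*, *HERP2_RAT* and *SPCS3_RAT* among them, and are not described here.

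ER-associated degradation was represented by *Herpud1* and *Derl1*. *Herpud1* (ENSRNOG00000018796), a membrane protein of the ubiquitin ligase complex that is well known as a target of the unfolded protein response, had 476, 509.8 and 495 normalized counts at E15 against 6795, 6051 and 6613 in the adult. Means were 493 ± 17.2 and 6486 ± 388 (SD, n = 3 each), a log2 fold change of −3.72 (SE 0.11) and 13.1-fold enrichment in the adult, next in size to *Sec11c*. *Derl1*, a component of the retrotranslocation channel, had 2678, 2544 and 2635 against 4671, 4838 and 4973, a log2 fold change of −0.88 (SE 0.09). The pools of an age were close to each other for both genes, E15 replicate 1 included.

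**Figure D4:**
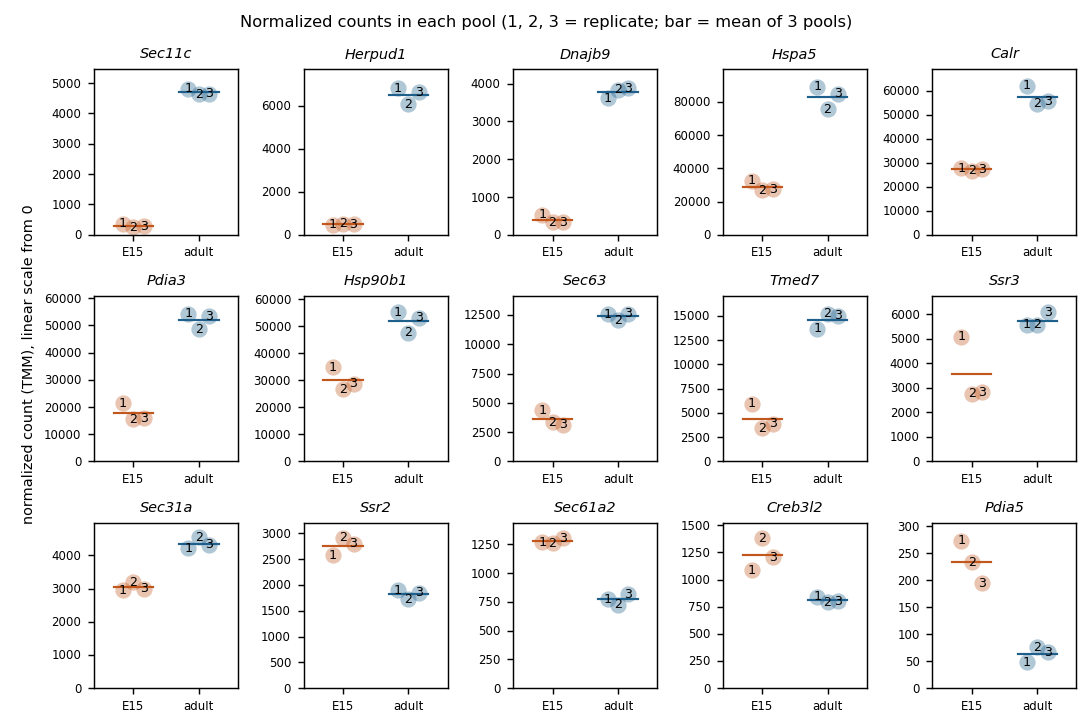
Normalized counts (y axis, TMM scaling, linear from 0) of 15 members in each of the 3 E15 pools (orange) and 3 adult pools (blue), numbered by replicate, with a bar at the mean. The ages do not overlap in any panel; in *Ssr3* E15 replicate 1 lies close to the adult pools (5075 against 5562 to 6075), and *Ssr2*, *Sec61a2*, *Creb3l2* and *Pdia5* are higher at E15.

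The promoters of the members were read for elements of the unfolded protein response. RefSeq promoters (build GRCr8, 250 bases before to 50 bases after the start of the gene) were matched for 45 of the 48 members, with *Derl1*, *Pdia3* and *Sec61a2* missing; 46 members were matched by symbol and 2 (*Srpr* as Srpra and *Copg* as Copg1) by synonym. The ER stress element ERSE (CCAAT, 9 bases of any kind, then CCACG), its second form ERSE-II (ATTGG, 1 base of any kind, then CCACG) and the core of the unfolded protein response element (TGACGTGG) were searched on both strands as exact letters. ERSE was found in 3 of the 45 member promoters (6.67%) and in 0.0657% of all 33469 promoters, ERSE-II in 2 (4.44%) and in 0.0508%, and the response element core in 3 (6.67%) and in 0.595%. The 8 members that hold a match were enriched in the adult with TMM scaling. With total counts *Hsp90b1*, *Copb1*, *Dnajb11*, *Dnajc10* and *Kdelr3* were not called, and *Hsp90b1* and *Copb1* changed sign. Their median log2 fold change was −0.92 against −1.05 for the 37 members without a match. The ERSE was in *Hspa5* (first base 43 bases before the start), *Calr* (232, minus strand of the gene) and *Hsp90b1* (176 on the plus and 72 on the minus strand of the gene). ERSE-II was in *Herpud1* (124 before) and *Dnajb11* (10 before), and the response element core in *Copb1*, *Dnajc10* and *Kdelr3*. No match overlapped another in a member promoter. These promoters are printed because they hold ERSE or ERSE-II, and that of *Sec11c* because the gene changed most and holds none of the 3; capitals mark the matched elements, and each runs 5′ to 3′ along the strand of the gene. They lie at chr3:38452766-38453065, plus strand (*Hspa5*), chr19:40213117-40213416, plus strand (*Calr*), chr7:23012244-23012543, minus strand (*Hsp90b1*), chr19:10614658-10614957, minus strand (*Herpud1*), chr11:91672751-91673050, minus strand (*Dnajb11*) and chr18:61590655-61590954, plus strand (*Sec11c*). A match describes letters in the sequence and is no evidence of binding.
Hspa5: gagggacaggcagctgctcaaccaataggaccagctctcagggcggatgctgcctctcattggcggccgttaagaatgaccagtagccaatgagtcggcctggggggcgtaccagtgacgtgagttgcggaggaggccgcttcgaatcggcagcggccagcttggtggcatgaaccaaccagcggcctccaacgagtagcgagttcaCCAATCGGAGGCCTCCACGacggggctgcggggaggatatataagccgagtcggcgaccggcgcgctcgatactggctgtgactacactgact
Calr: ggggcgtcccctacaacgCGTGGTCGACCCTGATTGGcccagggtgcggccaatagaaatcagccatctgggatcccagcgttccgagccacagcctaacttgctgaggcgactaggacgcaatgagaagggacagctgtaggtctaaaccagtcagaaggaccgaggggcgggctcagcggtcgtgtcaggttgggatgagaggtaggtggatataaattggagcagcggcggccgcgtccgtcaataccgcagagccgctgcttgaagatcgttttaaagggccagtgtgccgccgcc
Hsp90b1: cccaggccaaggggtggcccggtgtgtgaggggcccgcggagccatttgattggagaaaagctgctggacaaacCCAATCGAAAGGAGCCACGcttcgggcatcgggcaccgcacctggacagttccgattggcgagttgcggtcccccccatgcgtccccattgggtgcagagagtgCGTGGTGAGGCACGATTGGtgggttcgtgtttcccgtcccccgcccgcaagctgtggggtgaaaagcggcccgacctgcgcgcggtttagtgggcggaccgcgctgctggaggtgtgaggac
Herpud1: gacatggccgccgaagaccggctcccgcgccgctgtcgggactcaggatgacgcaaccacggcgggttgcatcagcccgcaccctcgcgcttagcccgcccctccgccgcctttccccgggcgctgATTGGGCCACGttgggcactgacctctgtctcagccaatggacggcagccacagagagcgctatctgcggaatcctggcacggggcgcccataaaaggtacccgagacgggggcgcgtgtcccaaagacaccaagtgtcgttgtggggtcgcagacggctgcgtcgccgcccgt
Dnajb11: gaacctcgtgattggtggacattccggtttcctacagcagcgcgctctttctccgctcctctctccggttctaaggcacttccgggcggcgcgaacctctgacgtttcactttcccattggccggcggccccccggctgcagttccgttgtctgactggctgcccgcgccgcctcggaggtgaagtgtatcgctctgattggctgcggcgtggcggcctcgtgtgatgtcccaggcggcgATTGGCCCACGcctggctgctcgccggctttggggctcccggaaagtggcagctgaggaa
Sec11c: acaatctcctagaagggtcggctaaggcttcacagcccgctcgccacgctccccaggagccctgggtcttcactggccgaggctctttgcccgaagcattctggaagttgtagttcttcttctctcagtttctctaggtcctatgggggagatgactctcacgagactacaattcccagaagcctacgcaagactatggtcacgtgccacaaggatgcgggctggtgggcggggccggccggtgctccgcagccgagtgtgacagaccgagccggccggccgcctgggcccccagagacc

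The transcription factor role held 4 members. *Atf4*, the effector of the PERK branch of the unfolded protein response, had 1746, 1877 and 1925 normalized counts at E15 against 4171, 3737 and 3902 in the adult, a log2 fold change of −1.09 (SE 0.10). The other 3 encode ER-anchored factors that are cut free in the Golgi. *Creb3l1* had 608, 786 and 675 against 1828, 1750.4 and 1599 (−1.32, SE 0.13), and *Creb3* had 1196, 1375 and 1333 against 2493, 2442 and 2557 (−0.94, SE 0.10). *Creb3l2* (ENSRNOG00000012826) went the other way, with 1088, 1383 and 1205 normalized counts at E15 against 841, 793 and 802 in the adult, a log2 fold change of 0.59 (SE 0.12). Thus 2 factors of the same family and anchor, *Creb3l1* and *Creb3l2*, were enriched at different ages.

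The COPII coat and ER exit gave 4 members, 3 of them called higher in the adult with TMM scaling and 0 with total counts, by which *Sec31a*, *Sec22b* and *Sec16b* were called higher at E15. *Sec31a*, a subunit of the outer coat, had 2951, 3195 and 2994 normalized counts at E15 against 4216, 4539.6 and 4315 in the adult, a log2 fold change of −0.52 (SE 0.09). *Sec22b*, a SNARE of the vesicles between ER and Golgi, had 1564, 1666 and 1708 against 2309, 2369.8 and 2406, a log2 fold change of −0.52 (SE 0.10). *Sec31a* and *Sec22b* had the smallest changes among the members, and with total counts their calls reversed, to higher at E15 (0.29 and 0.28). Relative to the standard error the change was smallest in *Ssr3* and *Copz2*. The authors' adjusted p, which decided the names, was not used, so how near to its threshold a member lay is not given, and genes outside it have no name. *Sec22a* had 291, 251 and 295 against 544, 625 and 600.2, a log2 fold change of −1.08 (SE 0.14). *Sec16b* (ENSRNOG00000005229), a scaffold of ER exit sites, was the member with fewest counts, with 59.8, 77 and 91.8 normalized counts at E15 against 39.6, 23.4 and 33 in the adult, and it was higher at E15 by a log2 fold change of 1.25 (SE 0.33).

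COPI coat members numbered 3. *Copb1*, the beta subunit, had 5667, 4453 and 4691 normalized counts at E15 against 8126, 7643 and 8178 in the adult, a log2 fold change of −0.69 (SE 0.11). *Copg*, a gamma subunit, had 4311, 4704 and 4794 against 7780.2, 6956 and 7294, a log2 fold change of −0.67 (SE 0.10). *Copz2*, an isoform of the zeta subunit, had 106, 211 and 176 against 339.8, 239 and 334, a log2 fold change of −0.89 (SE 0.27) that ran from −0.66 without E15 replicate 1, its lowest pool, to −1.11 without E15 replicate 2. With total counts *Copb1* (0.11) and *Copg* (0.13) lay on the E15 side and *Copz2* (−0.08) near 0, and none of the 3 was called.

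Cargo and retrieval receptors made up 10 members, all on the adult side with TMM scaling, although *Kdelr1*, *Ergic2* and *Tmed10* were on the E15 side with total counts. By that scaling 4 of the 10 were called higher in the adult and 6 were not called. The p24 proteins, which select cargo and shape both kinds of vesicle, included the largest changes of this role. *Tmed3* had 519, 636 and 626 normalized counts at E15 against 2362, 2061 and 2410.4 in the adult, a log2 fold change of −1.94 (SE 0.13). *Tmed7* had 5943, 3426 and 3861 against 13652, 15199 and 14991, a log2 fold change of −1.73 (SE 0.19), and *Tmed4* changed by −1.55 (SE 0.09). *Tmed2* (−1.05, SE 0.17) and *Tmed10* (−0.66, SE 0.11) changed less. Of the receptors that return escaped ER residents, *Kdelr1* changed by −0.80 (SE 0.09) and *Kdelr3* by −0.82 (SE 0.15), and of the cycling proteins of the intermediate compartment *Ergic3* changed by −1.13 (SE 0.12) and *Ergic2* by −0.72 (SE 0.14).

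*Lman1* and *Mcfd2* encode the lectin and its partner that carry coagulation factors V and VIII out of the ER, and *F5*, which encodes factor V, was a listed epithelial marker. *Lman1* had 1489, 1425 and 1411 normalized counts at E15 against 2486, 2567 and 2508 in the adult, a log2 fold change of −0.81 (SE 0.10). *Mcfd2*, which is outside the name pattern, had 2116, 1859 and 1982 against 7292, 7356 and 6821, a log2 fold change of −1.85 (SE 0.10). *F5* itself had 512, 609.9 and 688 against 80877, 74508 and 84641, a log2 fold change of −7.05 (SE 0.16). All 3 were higher in every adult pool, by amounts that differed greatly, and with total counts *Lman1* was close to level (−0.001).

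The share of a library that the members took is relative to its total counts, and so depends on *Ttr* and the other most abundant genes. The 48 members held 1.55, 1.3 and 1.33% of the counts of E15 replicates 1 to 3, against 1.82, 1.76 and 1.85% for the adult replicates, means of 1.4% ± 0.135 and 1.81% ± 0.0448 (SD, n = 3 each). Together *Hspa5*, *Hsp90b1*, *Calr* and *Pdia3* made up 0.713% ± 0.0747 of the E15 counts, against 0.96% ± 0.0456 of the adult counts (SD, n = 3 each). Without the 10 genes of highest mean count, which include the member *Hspa5*, the shares of the other members were 1.27% and 1.99%. The adult pools lay above the E15 pools in the share, with E15 replicate 1 the nearest to them. By role, chaperones held 0.664% ± 0.0592 at E15 and 0.852% ± 0.0374 in the adult, whereas the COPI coat held 0.0666% ± 0.00229 and 0.0613% ± 0.00159 and COPII with ER exit 0.0346% ± 0.00124 and 0.0288% ± 0.0016 (SD, n = 3 each). The coat genes took a smaller share of the adult totals, but with TMM scaling their summed normalized counts were 1.61 times (COPI) and 1.45 times (COPII with ER exit) as high in the adult as at E15. Counts also depend on transcript length, so these shares do not rank the genes by molecules.

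Lists of other secretory pathway genes held 207 symbols outside the pattern, of which 102 had a name, again only because they had been called. Of the 102, 85 (83.3%) were higher in the adult and 17 (16.7%) at E15, against 42.2% and 50.6% of all named genes, with a median log2 fold change of −0.98. With total counts 42 were called higher in the adult and 18 at E15, against 2206 and 5483 of the 9958 named genes tested. Apart from collagen maturation, 79 of 89 were higher in the adult, and nothing is read from this count or those of the single lists, whose genes were named because they had been called. The list kept for the translocon and signal peptidase had only 2 named genes of 12. *Tram1* was higher in the adult (−1.29, SE 0.13) and *Btf3*, which does not encode a translocon subunit, at E15 (1.05, SE 0.22). *Btf3* had 78, 62 and 58 raw counts in the adult pools. Enzymes of N-glycan assembly and trimming were higher in the adult for 12 of 13 genes (*Ganab* and *Alg3* on the E15 side with total counts), among them *Alg6* (−1.60, SE 0.22), *Alg5* (−1.50, SE 0.14), *Tusc3* (−1.43, SE 0.10) and *Dpm1* (−1.38, SE 0.15). For degradation 9 of 10 were higher in the adult (*Syvn1* on the E15 side with total counts), with the largest changes in *Ubxn8* (−2.45, SE 0.16), *Erlin2* (−2.44, SE 0.12), *Erlec1* (−2.00, SE 0.11) and *Selk* (−1.78, SE 0.14).

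The unfolded protein response list had 10 of 11 genes higher in the adult (*Ppp1r15b* on the E15 side with total counts). *Eif2ak3*, which encodes the sensor PERK upstream of *Atf4*, had 408, 399 and 384 normalized counts at E15 against 1179, 1193 and 1272 in the adult, a log2 fold change of −1.61 (SE 0.11). *Asns*, a target of *Atf4*, had 271, 255 and 264 against 872, 866 and 937 (−1.76, SE 0.12). *Trib3*, another known target of *Atf4* and the only gene of this list higher at E15, was named after its values were seen, and had 31.9, 37 and 34.5 against 9.91, 10.4 and 23.4 (1.24, SE 0.44). Its raw counts in the adult pools were only 7, 8 and 17, and its log2 fold change ran from 1.0 to 1.72 when single libraries were left out. *Bcap31* (−2.02, SE 0.10) and *Nfe2l2* (−1.59, SE 0.12) had the other changes named by size in the list. ER exit genes were higher in the adult for 17 of 19 (*Sar1a*, *Bet1l*, *Gosr1* and *Gosr2* on the E15 side with total counts), with *Mcfd2*, *Yipf5* (−1.77, SE 0.13) and *Sar1b* (−1.67, SE 0.16), whose product starts the COPII coat, against *Cnih2* at E15 (5.22, SE 0.34). *Cnih2* had 15, 40 and 12 raw counts in the adult pools, and its log2 fold change was 5.86 without adult replicate 2. In the COPI and retrieval list 9 of 10 were higher in the adult, among them *Golph3* (−1.29, SE 0.16), *Arf4* (−1.04, SE 0.17), *Cog6* (−0.95, SE 0.13) and *Tmf1* (−0.83, SE 0.10), but *Arcn1*, *Rer1*, *Golgb1*, *Gorasp2* and *Cog7* were on the E15 side with total counts. By that scaling the genes called higher in the adult were 5 of 13 for N-glycans, 13 of 26 for folding and 5 of 10 for degradation. They were 6 of 11 for the unfolded protein response and 8 of 19 for ER exit. For COPI and retrieval they were 1 (*Golph3*) of 10, with 2 (*Zw10* and *Golgb1*) called higher at E15. Among the 9958 named genes tested, 2206 were called higher in the adult with total counts.

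Of the folding genes outside the pattern, 22 of 26 were on the adult side (*Erp29*, *Tmx1*, *Fkbp7*, *Fkbp11*, *Creld1*, *Sdf4* and *Dnajb14* on the E15 side with total counts), such as *Sumf1* (−2.98, SE 0.13), which activates sulfatases, and the thioredoxin-like *Tmx4* (−2.16, SE 0.15). On the E15 side *Ppic*, a cyclophilin, had 1678, 1476 and 1245 normalized counts at E15 against 34, 85.7 and 50.8 in the adult (4.68, SE 0.28), and *Rcn3*, a calcium-binding protein of the ER lumen, had 892, 1723 and 1404 against 201, 243 and 221 (2.60, SE 0.23).

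Collagen maturation, which uses its own set of ER enzymes and chaperones, had 7 of 13 genes (53.8%) higher at E15, against 50.6% of all named genes (*Plod3*, *Sc65* and *Pcolce* turned to that side with total counts). Its median log2 fold change was 0.80, close to the 0.73 of all named genes. *P4ha3*, a subunit of prolyl 4-hydroxylase, had 174, 247 and 234 normalized counts at E15 and only 0, 1 and 3 raw counts in the adult pools, so few that its fitted value is not given here. *Fkbp10*, a peptidyl-prolyl isomerase for collagen, was higher at E15 (1.76, SE 0.16), whereas the lysyl hydroxylase *Plod2* (−1.61, SE 0.16) and the prolyl 3-hydroxylase *Leprel1* (−4.67, SE 0.24) were higher in the adult. *Serpinh1*, the collagen chaperone HSP47, named here after its values were seen because it has most counts in the list, had 24597, 35316 and 33783 at E15 against 11208, 10712 and 10334 in the adult (1.54, SE 0.14). Its direction was opposite to that of *Hspa5* and *Calr* with TMM and with total counts.

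**Figure D5:**
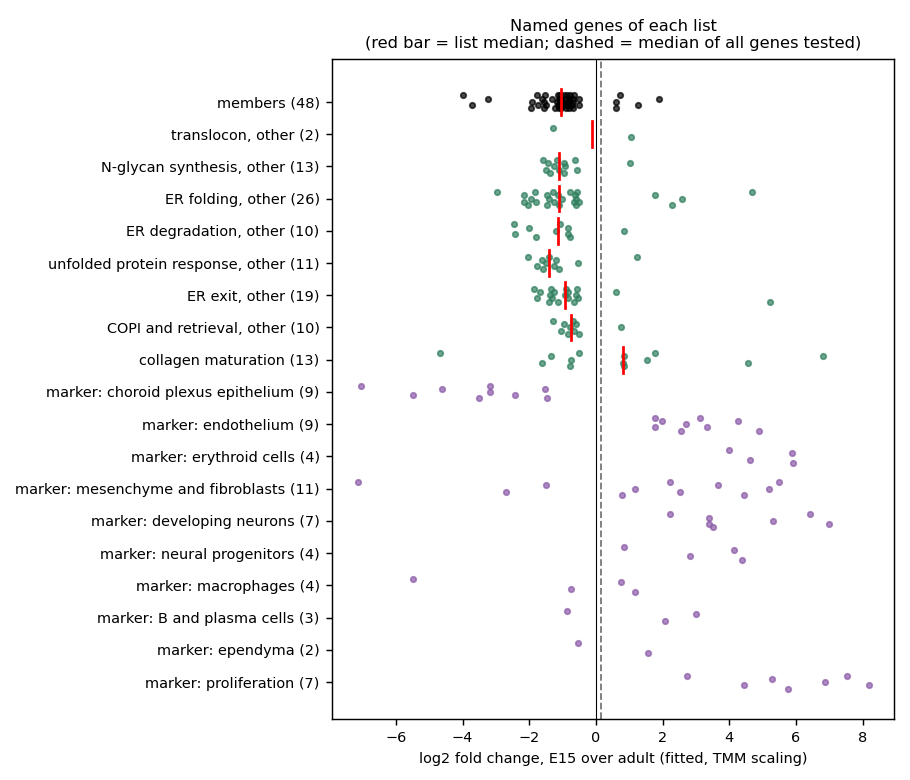
Fitted log2 fold change (x axis, E15 over adult) of the members (black), of named genes in other secretory pathway lists (green) and of cell type markers (purple), 1 row per list with the number of genes drawn. Red bars mark the median of the members and of each pathway list, the dashed line the median of all genes tested, and 4 marker genes with 3 or fewer counts at an age are left out. With TMM scaling, collagen maturation is the only pathway list with its median on the E15 side (0.80, against 0.73 for all named genes). Genes that turn with total counts are named with each list in the text.

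Markers of cell types also differed between the ages. Of 12 listed markers of choroid plexus epithelium, 9 had a name and all 9 were higher in the adult, with summed normalized counts of 437569.9, 527082 and 542222 at E15 against 5004439, 4173134 and 4071409 in the adult. *Ttr* gave most of this sum, and without it the sums were 47857, 60316 and 61508 against 419773, 411636 and 431834, a ratio of 7.44 against 2.27 for the members. Mesenchyme markers (11 of 11 named, 8 higher at E15 and 3 in the adult) summed to 48945, 65756 and 57166 against 19700.4, 19931 and 18779, with most counts in *Col3a1*. Between the ages most members were higher where epithelial markers were higher, whereas among the E15 pools replicate 1 had the lowest epithelial sum and the highest sum of the members (226826, 189409 and 193715 in replicates 1, 2 and 3). The part of these markers in the members' values was not tested.

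Markers of endothelium, erythroid cells and dividing cells were higher at E15. Endothelium (9 of 11 named, all higher at E15) summed to 9779, 14596 and 12362 at E15 against 1209, 1905 and 1449 in the adult. *Plvap* was highest over all libraries, but *Cdh5* was highest at E15 and *Vwf* in the adult. Erythroid cells (5 of 10, all higher at E15, most counts in *Slc4a1*) summed to 6531, 8411 and 7519.9 against 125, 244 and 158, with *Gata1* at 0 in every adult pool. Proliferation genes (7 of 11, all higher at E15, most counts in *Cdk1* at E15 and in *Mcm2* in the adult) summed to 12445, 11303 and 12453 against 386, 512 and 522. The sums of these 3 lists did not overlap between the ages.

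For developing neurons (9 of 10, all higher at E15, most counts in *Tubb3*) the adult sums were 142, 483 and 136, with *Neurod6* and *Nhlh1* at 0. Neural progenitors (5 of 7, all higher at E15, most counts in *Vim*, which many cell types express) summed to 24853, 27611 and 27369 against 1229, 2241 and 1362. Macrophage markers (4 of 9, 2 higher at each age with TMM and *C1qa* turned with total counts) summed to 1283, 1729 and 1497 against 2040.3, 2498 and 2848. Of these, *Csf1r* was highest at E15 (mean 1007, against 444 in the adult) and *Lyz2* in the adult (1555, against 34.4 at E15). Ependymal markers (2 of 8, 1 at each age with TMM, most counts in *Dnah5*, which turned with total counts) summed to 2465, 3131 and 2785 against 2581, 2644 and 2512. B and plasma cells, plasma cells being known for a large ER, had 3 of 8 markers named (2 higher at E15, *Igj* not called), most counts in *Cd38*, and sums of 141, 147 and 98.8 at E15 against 42.5, 67.5 and 35.7 in the adult.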

How the data were processed

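The deposited counts are unnormalized whole numbers for Ensembl genes. To make them, the authors trimmed the reads, aligned them to the rat genome of Ensembl (release 61) using Bowtie 0.12.7, dropped those without a unique place and counted with HTSeq 0.4.7p4. The log2 fold changes and log2 abundances in a second table were made by the authors with edgeR 2.4.0 and deposited for the genes they called. Its p-values were made by the authors with the exact test of edgeR 2.4.0 and Benjamini-Hochberg adjustment before they were deposited. None of these columns was used, and only the gene names of that table were. Copies of a gene that share sequence lose reads to the unique-place rule, so counts of members with close pseudogenes are uncertain. Members and lists were chosen with earlier results of these data known.

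The ages were compared over 16643 genes with more than 10 counts in all, with edgeR 4.0.16 (estimateDisp, glmQLFit, glmQLFTest) in R 4.3.3, age as the sole term after TMM scaling, and Benjamini-Hochberg adjustment over all of them at 0.05. Dispersion over all genes was 0.0332. The SE of a log2 fold change is its absolute value divided by the square root of the test's F. It uses dispersion shared in part across genes, so it is not the spread of the pools. TMM factors of E15 replicates 1 to 3 were 1.32, 1.32 and 1.33, those of the adult replicates 0.735, 0.773 and 0.762. A normalized count is the raw count divided by the library's total times its factor, multiplied by their mean over libraries. Ratios of a pool to the other pools of its age had a pseudocount of 0.5. No library was left out. The fits were tested on simulated data, where large changes were called and most of the smallest were not. The first criterion for recovery was not met and was replaced after this had been seen. Alternatives were RLE factors, total counts, total counts less the 10 most abundant genes, an unfiltered table, DESeq2 1.42.0, limma-voom (limma 3.58.1), edgeR's exact test, the replicate number as a block, and each library left out. In roles of 8 or fewer members all were named; in larger roles those with the 3 largest changes in each direction (mean above 100 at the higher age) and the 2 most abundant, then the 10 members of highest mean count, those whose sign depends on the scaling, and up to 4 called genes of each other pathway list by size of change, with a mean above 100 at the higher age. Further members, calnexin, *Serpinh1*, *Trib3*, *Zw10*, the marker genes at 0, *F5* and the listed genes that turn with total counts were named beyond the rule, after their values were seen. Of each marker list described, the most abundant gene was named, and a further marker list is not reported here. The promoters are from RefSeq (GRCr8), a later build than the counts' annotation. Python 3.11.15, numpy 2.4.6, pandas 2.3.3 and matplotlib 3.10.9 made the lists and figures.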

Additional observations from a re-analysis of the deposited data

How the results depend on the processing

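The counts of 43 members called higher in the adult and 5 at E15 were the same with RLE scaling, no filter, DESeq2, limma-voom, the exact test of edgeR under a shared dispersion and the replicate block (43 and 5 with the block as well), which is no sign of stability, since the members were named because the authors' exact test had called them in these libraries. Replicate numbers did not pair the pools: the deviations of same-numbered pools correlated at −0.00722, −0.0105 and −0.0384, and no pool correlated best with its own number. Leaving out each library in turn gave 42 to 43 and 5 to 5 members, 81 to 85 and 16 to 17 other pathway genes, member medians from −1.07 to −0.97, and shares from 1.32% to 1.44% at E15 and from 1.79% to 1.83% in the adult. The member call lost was that of *Ssr3*, without adult replicate 3 (−0.67) or E15 replicate 3 (−0.55). Counts of calls with a library left out are no sign of stability either, since these genes were named because they had been called. With total counts, 20 members and 42 other pathway genes (85 with TMM) were called higher in the adult and the members' median was −0.23; without the 10 genes of highest mean count it was −0.57, with 34 members called higher in the adult, and the adult share was 1.99% (with *Hspa5*, which is among them, left out of the members) in place of 1.81%. Total counts turned *Kdelr1* (0.004), *Hsp90b1* (0.02), *Ergic2* (0.082), *Ssr3* (0.11), *Copb1* (0.11), *Copg* (0.13), *Tmed10* (0.14), *Sec22b* (0.28) and *Sec31a* (0.29) to the E15 side, which the scaling by itself produces, since every gene moves by about the same amount. With 3 pools at each age, an exact permutation test of a single value could not go below 0.1.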
